A study of Mus musculus with 6 samples.

Results

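Transcription factors that establish and hold the B lymphocyte lineage were examined in cultured mouse bone marrow cells lacking both cryptochromes, the repressors of the circadian clock. The set comprised 10 genes, Tcf3, Ebf1, Foxo1, Pax5, Ikzf1, Ikzf3, Lef1, Bcl11a, Bach2 and Pou2af1, taken as a list of gene names. The list was drawn up with earlier results of these data known. They were read by 32 of the 45037 probe sets that are not controls, and by 10 of the 18193 genes with a probe set of their own. The tested arrays were DKO 1, DKO 2 and DKO 3, of marrow cells from Cry1 and Cry2 double knockout mice, and they were set against WT 1, WT 2 and WT 3, of wild type marrow cells. Both groups were of strain C57BL/6 per the labels, and both had been grown in medium with fetal bovine serum and interleukin-7, the cytokine that sustains early B lymphocytes. The cells were an unsorted culture, and neither the age of the mice nor the number of animals or cultures behind each group is in the labels, so the p-values cover the spread between these arrays alone, which may be technical.

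B lymphocytes are specified in the marrow in steps. E proteins encoded by Tcf3, the pioneer factor EBF1 and FOXO1 open the early B lineage programme and lead to Pax5, whose product commits the cell by activating B lineage genes and repressing those of other lineages. The zinc finger factors of the Ikaros family act throughout lymphoid development, LEF1 and BCL11A act in early lymphoid cells, and BACH2 and the coactivator encoded by Pou2af1 act up to the mature B cell and its choice of becoming a plasma cell. Cryptochromes repress the activators CLOCK and BMAL1, which bind E-boxes, and E proteins bind E-boxes too.

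Promoter windows of 9 of the 10 genes were listed by RefSeq for GRCm38.p6, in 14 windows that run from 250 bases before to 50 bases after a start site. The canonical E-box of the clock, CACGTG, lay in 1 of the 14, against 7.15% of all 32851 windows listed. This was the most downstream of the start sites of Lef1. The general E-box CANNTG, which includes CACGTG, lay in 10 of the 14 windows, against 72.3% of all windows. The palindrome of TCCC and GGGA with any 2 bases between them, a form of the EBF1 binding motif that was searched after the values of the genes were known, lay in 1 of the 14, that of Foxo1, against 0.904% of all windows. Both strands were searched for each motif. The stretches below show the 2 rarer matches and the E-boxes nearest upstream of Ebf1 and Pax5, the genes that define the lineage, with the motif in capitals and 50 bases on each side. They are, read 5′ to 3′ on the strand of the gene, chr3:52268195-52268304 (plus strand, Foxo1, motif 92 bases before the start), chr3:131156165-131156270 (plus strand, Lef1, 79 bases before), chr11:44620070-44620175 (plus strand, Ebf1, 108 bases before) and chr4:44710733-44710838 (minus strand, Pax5, 94 bases before). A match is a description of these letters and not a site of binding.
Foxo1: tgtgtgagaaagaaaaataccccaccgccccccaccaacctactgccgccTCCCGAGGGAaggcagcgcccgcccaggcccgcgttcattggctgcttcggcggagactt
Lef1: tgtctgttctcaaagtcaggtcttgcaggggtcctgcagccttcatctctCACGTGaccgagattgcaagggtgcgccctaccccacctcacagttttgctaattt
Ebf1: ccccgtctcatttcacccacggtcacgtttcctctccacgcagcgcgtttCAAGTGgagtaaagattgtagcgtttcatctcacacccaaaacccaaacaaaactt
Pax5: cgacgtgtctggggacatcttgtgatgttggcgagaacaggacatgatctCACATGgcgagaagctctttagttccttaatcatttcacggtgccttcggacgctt

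Values are intensities on a linear scale as deposited, 1 per probe set and array, and each array had a trimmed mean of 500. WT 2 stood apart from the other 5 arrays. Its 3' to 5' signal ratio of Actb control probe sets was 824, against 1.47 to 2.05 on the others, and its correlation with them across tested probe sets was 0.752 to 0.780, where the others had at least 0.936 among themselves. The main results for the 10 genes are therefore given with all 6 arrays and without WT 2. Of the targeted genes, Cry1 read 359, 399 and 545 on DKO 1 to 3, against 1533, 1502 and 955 on WT 1 to 3, and Cry2 read 162, 178 and 133, against 145, 102 and 105. The position of these probe sets against the deleted parts was not analysed here, so the signals do not check the labels. Early B lineage markers were among the brightest genes of both groups. Vpreb1, of the surrogate light chain, read 19809, 21211 and 13707 on DKO 1 to 3, against 17371, 51355 and 14851 on WT 1 to 3, so this defining marker of early B cells was bright on every array.

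None of the 10 transcription factor genes passed the test between the genotypes. The test was a limma fit of log2(intensity + 16), centred on the array median, with Benjamini-Hochberg adjustment over 27022 probe sets and a threshold of 0.05. With all 6 arrays, 0 of 10 genes were called, each gene taken by its probe set with the highest mean signal, and the background was 0.00792% of 12627 tested genes. Their limma adjusted p lay between 0.822 and 0.906, and 0 of the 10 had an unadjusted p under 0.05, against 3.27% of all tested genes. Of the 31 probe sets of these genes that passed the filter on dim signal, limma called 0, against 0.0074% of all tested probe sets. One Ebf1 probe set among them had an unadjusted p under 0.05, against 3.12% of all tested probe sets. Without WT 2 the counts were again 0 of 10 and 0 of 31, at a background of 0.0159% of genes and 0.0222% of probe sets, and the limma adjusted p lay between 0.949 and 0.997. A p above the threshold does not show that the levels were equal, and the intervals below give what sizes of difference remain possible.

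With all 6 arrays 9 of the 10 genes had higher mean signal in DKO. The share over all tested genes was 70.2%, and the difference between these shares was not tested. The median log2 difference was 0.35 for the 10 genes and 0.30 for all tested genes. Under quantile normalization the median of all tested genes moved to 0.01, with 8 of the 10 factors higher in DKO, against 50.9% of all tested genes. With centring over the tested probe sets 7 of the 10 were higher, against 50.8%. With no centring 6 of the 10 were higher, against 49.4%. Without WT 2, 7 of the 10 were higher, against 51.8% of all tested genes, with a median of 0.12 against 0.01. On every scaling tried, 6 or 8 of the 10 lay above the median of all tested genes.

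**Figure D1:**
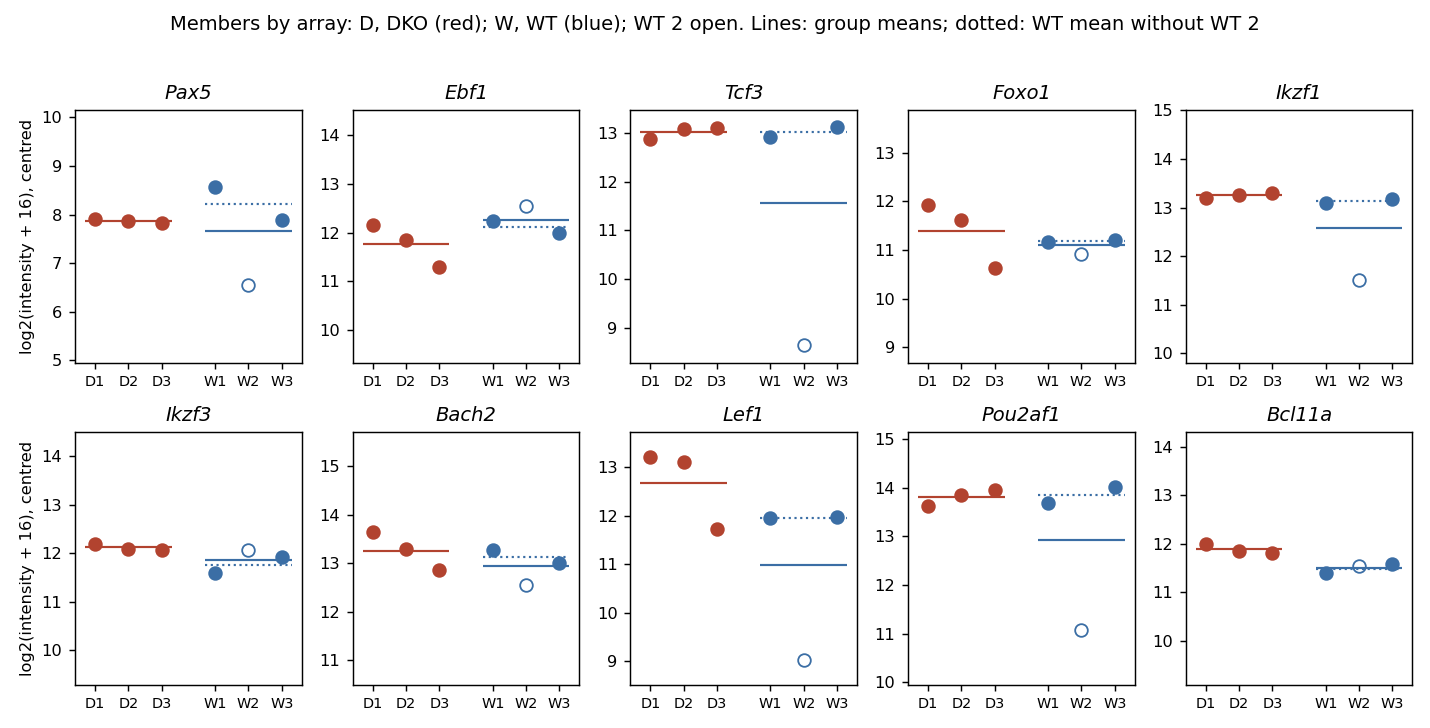
The log2 signal of the 10 genes on every array, log2(intensity + 16) centred on the array median, with DKO in red, WT in blue and WT 2 as an open circle. Each panel spans the same number of log2 units; solid lines are group means (n = 3 each) and the dotted line is the WT mean without WT 2. WT 2 lies far below the other arrays for Tcf3, Lef1 and Pou2af1, and DKO 3 lies below DKO 1 and DKO 2 for Ebf1, Foxo1, Bach2 and Lef1.

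Among the genes that specify the lineage, Tcf3 had nearly the same signal on 5 of the arrays by its brightest probe set. Its brightest probe set read 7179, 8160 and 7086 on DKO 1 to 3, against 7271, 682 and 7409 on WT 1 to 3. Apart from WT 2, the knockout and wild type arrays overlapped and spanned only 0.24 on the log2 scale. The log2 difference was 1.47 ± 1.13 (SE, with all 6 arrays, limma adjusted p = 0.822). Without WT 2 it was 0.005 ± 0.16 (SE), and the 95% confidence interval ran from -0.39 to 0.40. The other Tcf3 probe sets spanned 0.59 and 0.83 on these 5 arrays, and their differences were 0.14 and 0.11 without WT 2. Tcf12 and Tcf4 encode the other E proteins. Tcf12 differed by 0.04 ± 0.30 (SE, -0.01 without WT 2). Tcf4 read 3554, 2962 and 1193 on DKO 1 to 3, against 2150, 2936 and 1382 on WT 1 to 3, and its log2 difference was 0.49 ± 0.48 (SE), and 0.41 without WT 2.

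With all 6 arrays Ebf1 had lower mean signal in DKO by its brightest probe set and higher mean signal by the others. The lower one is the brightest through WT 2, since over the other 5 arrays another Ebf1 probe set had the highest mean, with differences of 0.46 with all 6 arrays and -0.29 without WT 2. The probe set brightest over all 6 arrays read 4359, 3428 and 2005 on DKO 1 to 3, against 4532, 10547 and 3361 on WT 1 to 3. DKO 3 had the lowest value and WT 2 the highest, and the groups overlapped. The log2 signal was 11.77 ± 0.44 in DKO and 12.26 ± 0.28 in WT (SD, n = 3 each), a difference of -0.49 ± 0.39 (SE, limma adjusted p = 0.822). Without WT 2 it was -0.35, with a 95% confidence interval of -1.01 to 0.32. Of the 4 other Ebf1 probe sets, 3 were bright, and these read 0.81, 0.70 and 0.46 with all 6 arrays and -0.03, 0.17 and -0.29 without WT 2. The dim one read 86.8, 54.2 and 38.5 on DKO 1 to 3, against 31.1, 30.8 and 28.6 on WT 1 to 3. It differed by 0.98 on the log2 scale (limma adjusted p = 0.822), and by 0.66 without WT 2, and was the one Ebf1 probe set whose unadjusted p lay below the threshold with all 6 arrays. Its direction was opposite to that of the brightest probe set.

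Foxo1 spread widely within the knockout group by its brightest probe set and less by the other tested ones. The brightest read 3719, 2922 and 1260 on DKO 1 to 3, against 2139, 3400 and 1942 on WT 1 to 3, so that DKO 1 held the highest and DKO 3 the lowest value of all arrays. On the log2 scale this was 11.39 ± 0.68 in DKO and 11.09 ± 0.15 in WT (SD, n = 3 each). The difference was 0.30 ± 0.46 (SE, limma adjusted p = 0.846), and without WT 2 it was 0.21 with a 95% confidence interval of -0.69 to 1.12. The other tested probe sets of Foxo1 had differences of 0.61 and 0.56, and of -0.01 and 0.12 without WT 2. The dimmer of them read 820, 915 and 792 on DKO 1 to 3, against 765, 448 and 915 on WT 1 to 3. Their log2 ranges over the 5 arrays other than WT 2 were 0.43 and 0.53, against 1.30 for the brightest. The remaining one did not pass the filter.

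Pax5 was dim on this array and its difference had no settled sign. The brighter of its probe sets read 213, 204 and 167 on DKO 1 to 3, against 340, 148 and 182 on WT 1 to 3. WT 1 had the highest and WT 2 the lowest value, and all knockout values lay between them. The log2 difference was 0.21 ± 0.53 (SE, limma adjusted p = 0.906) with all 6 arrays. It was -0.36 without WT 2, with a 95% confidence interval of -1.04 to 0.32, and -0.087 when arrays were centred over the tested probe sets. The other Pax5 probe set, at 9.38, 37.8 and 55.0 on DKO 1 to 3, against 79.4, 43.5 and 65.5 on WT 1 to 3, read -0.44, and -0.96 without WT 2 with a 95% confidence interval of -2.15 to 0.23.

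Ikzf1 and Ikzf3, which encode Ikaros and Aiolos, and Bcl11a were the 3 genes whose groups did not overlap on the centred log2 scale with all 6 arrays, each higher in DKO. Over all tested genes, 8.53% had every DKO array above every WT array. Ikzf1 read 8911, 9172 and 8155 on DKO 1 to 3, against 8186, 5092 and 7699 on WT 1 to 3. Its values apart from WT 2 lay within 0.22 on the log2 scale. The difference was 0.66 ± 0.49 (SE) with all 6 arrays and 0.12 without WT 2 (95% confidence interval -0.22 to 0.46). As deposited the Ikzf1 groups overlapped, with DKO 3 below WT 1. They separated only after centring, by 13.187 on DKO 1 against 13.176 on WT 3. Ikzf3 read 4469, 4083 and 3447 on DKO 1 to 3, against 2881, 7491 and 3228 on WT 1 to 3. The deposited value of WT 2 was thus the highest, and the groups separated only after centring, by 12.07 on DKO 3 against 12.06 on WT 2. Its difference was 0.26 ± 0.34 (SE, limma adjusted p = 0.826), and 0.36 without WT 2 (-0.09 to 0.81). The other Ikzf3 probe sets read -0.10 and -0.55 without WT 2, and the other Ikzf1 probe set -0.29.

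Bcl11a, needed in early lymphoid cells and also expressed in plasmacytoid dendritic cells, differed by 0.38 ± 0.34 (SE, limma adjusted p = 0.822). It read 3905, 3443 and 2868 on DKO 1 to 3, against 2512, 5254 and 2542 on WT 1 to 3. As for Ikzf3, the deposited value of WT 2 was the highest and the groups separated only after centring. Without WT 2 the difference was 0.40 ± 0.19 (SE) and a 95% confidence interval of -0.04 to 0.84. Its other 6 probe sets read -0.29 to 0.35 without WT 2, with signs in both directions. Without WT 2 the same 3 genes had groups that did not overlap, against 12.0% of all tested genes higher in DKO. The Bcl11a probe set is its brightest through WT 2. With each gene taken by its brightest probe set over the other 5 arrays, Ikzf1 and Ikzf3 alone of the 10 did not overlap. This held with all 6 arrays and without WT 2, and Bcl11a overlapped in both. The choice was made after seeing the data. Over all tested genes so taken, 8.61% with all 6 arrays and 11.9% without WT 2 were higher in DKO without overlap. With quantile normalization or no centring of all 6 arrays, 0 of the 10 genes had groups that did not overlap. Counted by probe set without WT 2, 5 of the 31 tested did not overlap and were higher in DKO, and 2 were lower. These 2 were the other Ikzf1 probe set and the dimmer Pax5 probe set. Over all tested genes, by their brightest probe sets, 12.0% were higher and 5.56% lower in DKO without overlap. The shares over all tested probe sets were not computed, so the counts by probe set have no like background.

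Lef1, a partner of beta-catenin in Wnt signalling that acts in pro-B cells and in T cell precursors, had the largest difference of the 10 genes by size with all 6 arrays and without WT 2. It read 9070, 8194 and 2692 on DKO 1 to 3, against 3735, 896 and 3306 on WT 1 to 3. DKO 1 and DKO 2 were above every WT array, while DKO 3 was below WT 1 and WT 3. On the log2 scale this was 12.67 ± 0.83 in DKO and 10.98 ± 1.70 in WT (SD, n = 3 each). The difference was 1.70 ± 0.88 (SE, limma adjusted p = 0.822). It ranged from 0.72 without WT 2 to 2.19 without WT 3, and without WT 2 the 95% confidence interval was -0.33 to 1.76. The second Lef1 probe set, which was dimmer, read 182, 524 and 166 on DKO 1 to 3, against 203, 110 and 193 on WT 1 to 3, and was high on DKO 2 alone.

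Bach2 encodes a repressor that delays plasma cell differentiation and holds back Prdm1. It read 12123, 9322 and 5964 on DKO 1 to 3, against 9241, 10600 and 6838 on WT 1 to 3. The groups overlapped, with DKO 1 highest and DKO 3 lowest as deposited, and the log2 difference was 0.32 ± 0.34 (SE, limma adjusted p = 0.822) and 0.12 without WT 2 (95% confidence interval -0.46 to 0.70). A second bright Bach2 probe set read 6491, 2893 and 2358 on DKO 1 to 3, against 8175, 12388 and 3354 on WT 1 to 3, a difference of -0.66 (-0.58 without WT 2). The 2 bright probe sets thus had opposite signs in both fits. Prdm1 was dim, at 63.6, 75.9 and 79.2 on DKO 1 to 3, against 109, 83.3 and 77.7 on WT 1 to 3, and its log2 difference was 0.07 ± 0.39 (SE) with all 6 arrays and -0.30 ± 0.28 (SE) without WT 2.

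Pou2af1 encodes the coactivator that works with octamer factors on immunoglobulin promoters, and it has a single probe set on this array. It read 12073, 13862 and 12749 on DKO 1 to 3, against 12372, 3774 and 13817 on WT 1 to 3. As deposited, DKO 3 lay between WT 1 and WT 3, and DKO 1 and DKO 2 lay just outside them. The log2 difference was 0.89 ± 0.74 (SE, limma adjusted p = 0.822) with all 6 arrays and -0.04 without WT 2, where the 95% confidence interval was -0.45 to 0.37. Its octamer partner Pou2f2 was dim and differed by 0.43 ± 0.41 (SE, 0.08 without WT 2).

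**Figure D2:**
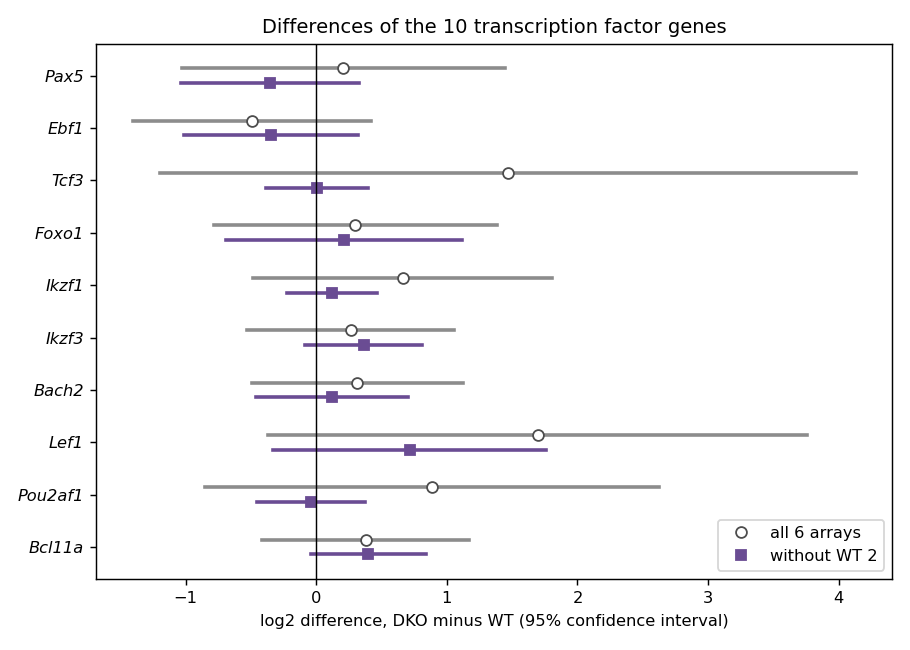
Log2 difference, DKO minus WT, of the 10 genes with 95% confidence intervals from limma, with all 6 arrays (open circles) and without WT 2 (squares). Every interval includes 0, and without WT 2 those of Tcf3, Ikzf1 and Pou2af1 are the narrowest, while that of Lef1 reaches from -0.33 to 1.76.

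The 10 genes, each by its brightest probe set, differed in how much they varied from array to array. Over the 5 arrays other than WT 2, the range of log2 signal was 0.22 for Ikzf1, 0.24 for Tcf3 and 0.39 for Pou2af1, and the median range of all tested genes was 0.73. Of all tested genes, 2.91%, 4.01% and 15.3% had a smaller range than these. Lef1 had a range of 1.50 and Foxo1 of 1.30, and 87.5% and 82.7% of tested genes had a smaller one. Other probe sets of a gene gave other ranges, of 0.60 for Ikzf1, 0.59 and 0.83 for Tcf3, 0.43 and 0.53 for the other tested ones of Foxo1, and 1.48 for Lef1. By the brightest probe sets of Lef1 and Foxo1, both ends of the range lay inside the knockout group. DKO 1 was highest and DKO 3 lowest, with WT 1 and WT 3 between them. Of the 10 genes, 5 had their lowest value of the 5 arrays on DKO 3 and 5 had their highest on DKO 1.

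Probe sets of 1 gene departed unequally on WT 2. Against the mean of the other 5 arrays, WT 2 departed by -7.33 on the log2 scale for 1 Tcf3 probe set and by -5.65 for another, and by 0.65 for the brightest Ebf1 probe set. Of the 31 tested probe sets, 10 had a difference of the other sign without WT 2. Among the 9 genes read by several tested probe sets, the sign differed between probe sets in 4 with all 6 arrays, namely Pax5, Ebf1, Ikzf3 and Bach2. Without WT 2 there were 6, namely Ebf1, Foxo1, Ikzf1, Ikzf3, Bach2 and Bcl11a.

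**Figure D3:**
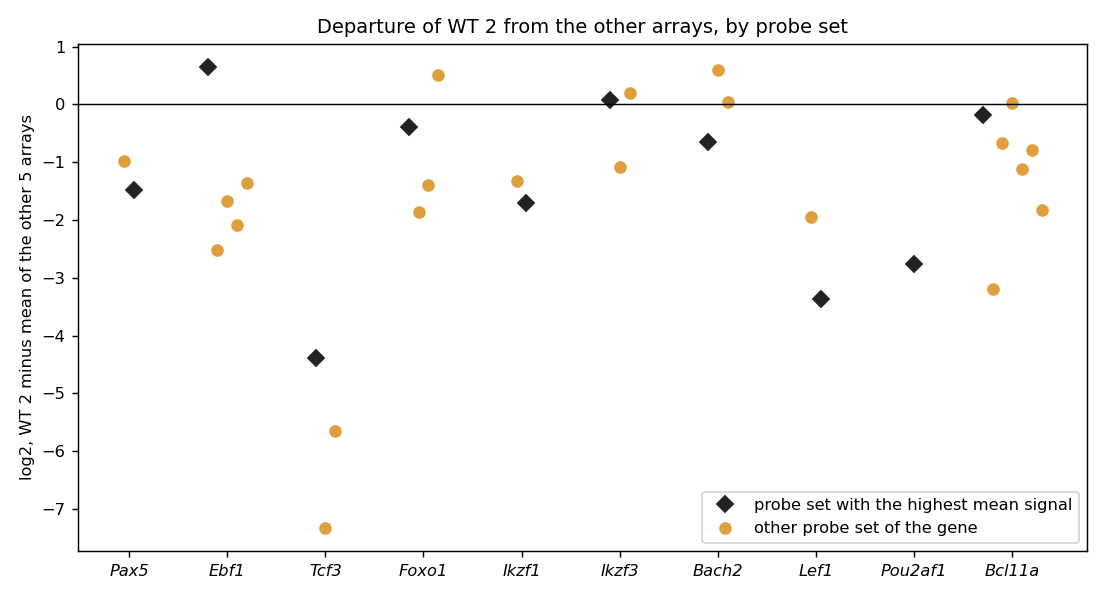
Departure of WT 2 from the mean of the other 5 arrays on the log2 scale, for all 32 probe sets of the 10 genes. Diamonds mark the probe set with the highest mean signal of each gene and circles the others; the values run from -7.33 for Tcf3 to 0.65 for Ebf1, and probe sets of 1 gene differ by several log2 units.

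Genes activated by PAX5 or EBF1 were mostly of higher mean signal in DKO. Of 14 listed, 11 were tested, 10 were higher and 1 lower both with all 6 arrays and without WT 2, and limma called 0. The shares higher over all tested genes were 70.2% and 51.8%. In both fits 0 of the 11 had every DKO array above every WT array, against 8.53% and 12.0% of all tested genes. Without WT 2, 1 of them, Blk, had every DKO array below both WT arrays, against 5.56%. The median log2 difference was 0.85 with all 6 arrays, against 0.30 for all tested genes, and 0.21 without WT 2, against 0.01. Blnk, the adaptor of the pre-B cell receptor, read 19885, 21100 and 11875 on DKO 1 to 3, against 9238, 7084 and 12405 on WT 1 to 3, a difference of 1.18 ± 0.49 (SE, limma adjusted p = 0.822, and 0.66 in log2 without WT 2). DKO 3 lay below WT 3. Bst1, a surface ADP-ribosyl cyclase, differed by 1.17 (0.70 without WT 2) and Cd79b, a signalling chain of the receptor, by 1.23 (0.21 without WT 2).

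Genes repressed by PAX5 or EBF1 went both ways. Of 14 listed, 12 were tested, with 8 higher and 4 lower in DKO, and limma called 0. Without WT 2, 5 were higher and 7 lower. The shares higher over all tested genes were 70.2% with all 6 arrays and 51.8% without WT 2. Jchain, the immunoglobulin joining chain, was the member with the smallest p. It read 6321, 2655 and 1907 on DKO 1 to 3, against 314, 550 and 82.3 on WT 1 to 3, a difference of 3.91 ± 0.63 (SE, limma adjusted p = 0.428), and of 4.13 without WT 2 (limma adjusted p = 0.167). Csf1r, the macrophage growth factor receptor, differed by -2.04 (-1.41 without WT 2) and Lmo2 by 0.87 (0.64 without WT 2).

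Target genes of FOXO1 were mostly of lower mean signal in DKO without WT 2. In that fit Foxo1 itself differed by 0.21 by its brightest probe set, and by -0.01 and 0.12 by the others tested. Of 11 listed, 10 were tested, with 4 higher and 6 lower with all 6 arrays, a median log2 difference of -0.16 and 0 called, and 2 were higher under quantile normalization. Without WT 2, 1 was higher and 9 were lower, with a median of -0.53 against 0.01 for all tested genes, and limma called 0. The count of 1 higher held when any 1 further array was left out beside WT 2, a check chosen after seeing the data. In this fit 6 of the 10 had every DKO array below both WT arrays, against 5.56% of all tested genes. Of the targets, Irs2 differed by -1.07 ± 0.46 (SE), and by -1.29 without WT 2, with limma adjusted p of 0.822 and 0.949. Rag1 and Rag2, the neighbouring genes of the recombinase, were chosen for naming after their values were seen. Rag2 read 226, 233 and 298 on DKO 1 to 3, against 485, 185 and 603 on WT 1 to 3, and its log2 difference was -0.26 with all 6 arrays and -1.08 ± 0.31 (SE) without WT 2. Rag1 differed by -0.06, and by -1.06 without WT 2. The exception was Il7r, the interleukin-7 receptor chain, at 9799, 9719 and 4970 on DKO 1 to 3, against 5922, 11468 and 5861 on WT 1 to 3, with a difference of 0.39 and of 0.38 without WT 2. Bcl6 differed by -0.35, and by -0.34 without WT 2.

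**Figure D4:**
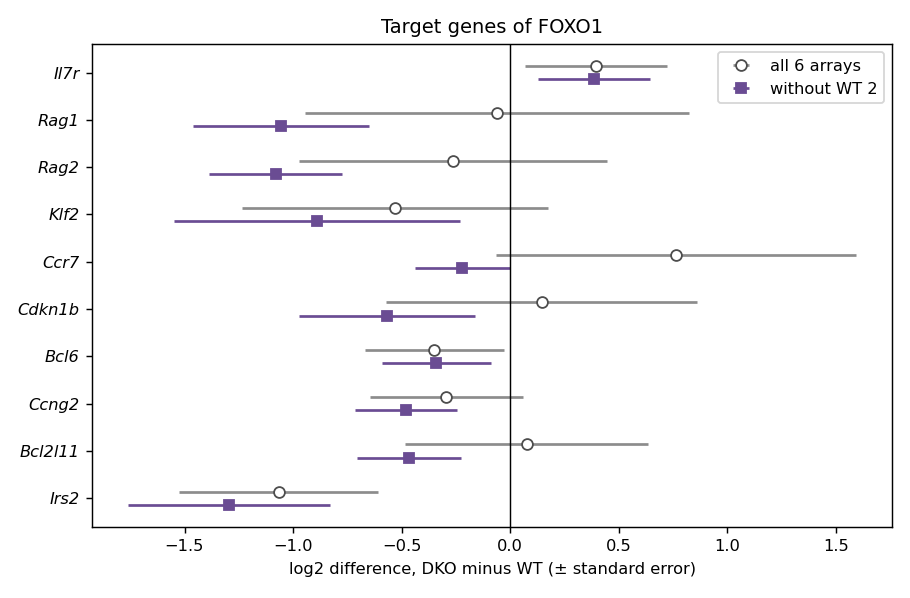
Log2 difference, DKO minus WT, of the 10 tested target genes of FOXO1 with standard errors from limma, with all 6 arrays (open circles) and without WT 2 (squares). Without WT 2 all but Il7r lie below 0, from -0.22 for Ccr7 to -1.29 for Irs2.

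Other transcription factors of lymphoid cells had higher mean signal in DKO in 23 of 24 tested with all 6 arrays and in 12 of 24 without WT 2. The shares over all tested genes were 70.2% and 51.8%. Under quantile normalization of all 6 arrays 17 were higher. The median log2 difference was 0.58 with all 6 arrays, against 0.30 for all tested genes, and -0.005 without WT 2, against 0.01. In both fits limma called 0. Irf8, which acts with the factors above in early B cells and in dendritic cells, read 8655, 9656 and 5391 on DKO 1 to 3, against 4059, 1845 and 4984 on WT 1 to 3, with no overlap. Its difference was 1.51 ± 0.66 (SE, limma adjusted p = 0.822), and 0.75 without WT 2. Erg, a factor of early progenitors, had a difference of 2.00 with all 6 arrays and 1.04 without WT 2, and read 2437, 3120 and 662 on DKO 1 to 3, against 695, 210 and 957 on WT 1 to 3. Ikzf2, the Helios gene of the Ikaros family, was dim and differed by 0.71 ± 0.30 (SE, 0.67 without WT 2).

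Marker genes of other cells also differed between the arrays on which Lef1, Foxo1, Ebf1 and Bach2 varied. In these bulk cultures fewer cells of a type and less RNA per cell cannot be told apart. The granulocyte markers read lower on average in DKO in 13 of 13 tested, and limma called 0 of them, as it did without WT 2, where 13 of 13 again read lower. The sum of 14 granulocyte markers was 645 to 27986 on the DKO arrays. It was 76430 and 19379 on WT 1 and WT 3, and 179451 on WT 2. S100a8 read 190, 186 and 10377 on DKO 1 to 3, against 24760, 94059 and 8306 on WT 1 to 3. Of 16 tested macrophage and monocyte markers 13 were lower in DKO (14 without WT 2). The sum over 19 was 18821 to 30894 on the DKO arrays. It was 53286 and 21514 on WT 1 and WT 3, and 110981 on WT 2. Of 11 tested T and NK cell markers 8 were higher, with 0 called, and 6 of 9 tested without WT 2. Their sum over 16 genes was 1493 to 4800 on the DKO arrays, against 1397 to 4472 on the WT arrays, and Cd3d, a chain of the T cell receptor complex, read 155, 295 and 8.43 on DKO 1 to 3, against 10.6, 14 and 7.9 on WT 1 to 3. DKO 1 and DKO 2, the arrays with high Lef1, had the lowest granulocyte sums and the highest Cd3d signal, while the T and NK cell sum was also high on WT 2, at 4472. Dntt, the terminal transferase of early lymphocytes, was also highest on DKO 1 and DKO 2, at 10162, 10083 and 1079 on DKO 1 to 3, against 1314, 3466 and 495 on WT 1 to 3. No marker of these lists was at 0 on any array. The part of these cells in the values of the 10 genes was not tested.

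The summed B lineage markers were 81600 to 114275 on the DKO arrays. They were 84737 and 85936 on WT 1 and WT 3, and 213363 on WT 2. Their median on the log2 scale, against the mean of the 5 arrays other than WT 2, was -0.02, 0.24 and 0.004 on DKO 1 to 3, against -0.15, -0.43 and 0.02 on WT 1 to 3. That of the 10 transcription factors was 0.24, 0.07 and -0.05 on DKO 1 to 3, against -0.13, -1.06 and -0.08 on WT 1 to 3. Both medians were lowest on WT 2. The B lineage median covers markers that differed in opposite directions between arrays. Ms4a1, which encodes CD20 of later B cells and is named here after its values were seen, read 88.5, 136 and 5741 on DKO 1 to 3, against 934, 1163 and 5263 on WT 1 to 3. It was lowest on DKO 1 and DKO 2, where Dntt was highest. Of the remaining lists, plasma cell markers had 6 of 7 higher (4 of 7 without WT 2), with 1 called, Igha, and plasmacytoid and dendritic cell markers had 7 of 9 higher (6 of 9 without WT 2), with 0 called. Erythroid and megakaryocyte markers had 4 of 7 higher (3 of 7 without WT 2), with 0 called.

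**Figure D5:**
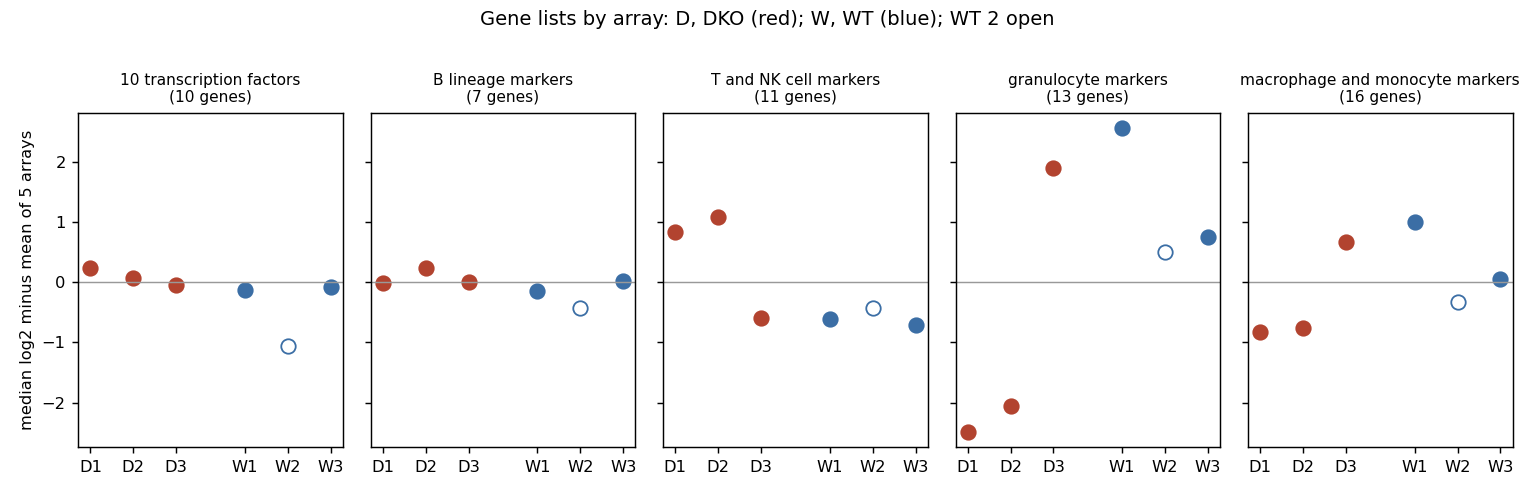
Median log2 signal of the tested genes of 5 lists on each array, each gene taken against its mean over the 5 arrays other than WT 2, with DKO in red, WT in blue and WT 2 open. The medians of the 10 transcription factors and of the B lineage markers stay within 0.24 of 0 apart from WT 2, while granulocyte markers run from -2.48 on DKO 1 to 2.56 on WT 1.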

How the data were processed

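Each probe set has 1 deposited intensity per array, linear and never negative, from MAS5 according to the submitters' processing notes. Its version, the genome build and detection calls were not given in the sources used here. The labels gave the groups. Probe sets were named through the platform annotation, where 34945 had 1 gene symbol, 932 several and 9160 none, and names were given to the 1-symbol probe sets alone. These symbols were updated through gene identifiers to GRCm38.p6, where 34741 matched.

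Values were transformed as log2(intensity + 16). Dim genes therefore have their log2 differences understated. Since medians of the arrays spread over 1.13, above the limit of 0.5, they were subtracted. The test took in probe sets whose mean exceeded percentile 40. Genotype was the single term in limma 3.58.1 (R 4.3.3), with a variance trend, two-sided, adjusted by Benjamini-Hochberg over all tested probe sets. Filter and centring were recomputed where arrays were left out. No set tests were run. Simulated DKO and WT arrays of 27022 probe sets, at the spread of the DKO arrays, gave back 24% of log2 changes of 1, 78% of 2 and 94% of 4, with 10 false calls. The spread of the WT arrays was not simulated, so these shares may be too high for the main fit, which includes WT 2. The standard errors of the 10 genes reached 1.13 with WT 2 and 0.44 without it. The number of arrays limits the precision.

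Members, lists, tests and named genes were chosen with earlier results of these data known. Named were all probe sets of the 10 genes, Cry1, Cry2 and fixed partners and markers. Lists were named by up to 4 called genes, or without calls by the 3 genes of smallest p. Replicate numbers were not used to pair the arrays in the main fit. The correlations of deviations of same-numbered arrays were -0.15, -0.002 and 0.33, the last being the highest of any DKO and WT pair. With 3 arrays per group, WT 2 among them, these values cannot show whether the arrays were paired. DKO 3 and WT 3 each had 0.984 as their highest correlation with any other array. Python 3.11.15 with pandas 2.3.3, scipy 1.17.1 and matplotlib 3.10.9 made tables and figures.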

Additional observations from a re-analysis of the deposited data

How the results depend on the processing

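No member gene was called under any of the 18 refits of the 10 genes. The lowest adjusted p was 0.0709, for Lef1 with array weights. The probe sets called over the whole array numbered 2 with all 6 arrays. They numbered 0 with centring over the tested probe sets, quantile normalization, no centring, a pseudocount of 1 and the replicate block, 1 with robust variances and with a filter at percentile 60, 5 without WT 2 under quantile normalization, and 0 to 6 with 1 array left out. Array weights gave 922 calls, computed gene by gene because the default estimate did not converge. The replicate block changed the call of none of the 10 genes. In this balanced design it leaves the differences and the overlap of the groups as they were. The counts of 9 genes higher in DKO and 3 not overlapping could therefore not change.

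Of 180 values of the 10 genes under these refits, 169 kept their sign and 11 turned it. The 169 include values that could not turn. Refits that changed only the filter, the variance trend, the robust variances or the replicate block left every difference as in the main fit. The Pax5 difference of 0.21 became -0.47 with array weights, -0.087 with centring over the tested probe sets, -0.11 with no centring and -0.35 without WT 2 under quantile normalization, with a range of -0.36 to 0.65 when 1 array was left out. Foxo1 read -0.014 with no centring and -0.031 with quantile normalization. Ikzf3 read -0.03 with centring over the tested probe sets and -0.05 with no centring. Pou2af1 read -0.035 without WT 2 under quantile normalization, and -0.04 to 1.43 with 1 array left out.

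The number of the 10 genes higher in DKO was 7 to 9 with 1 array left out, and 6 to 7 without WT 2 and 1 more. It was 7 with centring over the tested probe sets and 6 with no centring. The number whose groups did not overlap was 1 with centring over the tested probe sets and with a pseudocount of 64. It was 0 with quantile normalization, no centring and the mean of all probe sets of a gene. With 1 array left out it was 3 to 6, the highest without DKO 3. Groups of fewer arrays separate more easily. The share over all tested genes was not computed without DKO 3, so that count has no background. The number of FOXO1 targets higher in DKO was 1 with array weights and without WT 2 under quantile normalization. It was 2 with centring over the tested probe sets, no centring, quantile normalization, the probe set with the smallest p and the mean of all probe sets. It was 1 to 6 with 1 array left out. Of genes repressed by PAX5 or EBF1, 5 were higher with centring over the tested probe sets and without WT 2 under quantile normalization, 4 with no centring, and 5 to 8 with 1 array left out. Of the other lymphoid factors, 14 were higher with array weights, 12 without WT 2 under quantile normalization, and 12 to 23 with 1 array left out. With each gene taken by its brightest probe set over the arrays without WT 2 (added after the values were seen), which changed the probe set of Ebf1 and Bcl11a, 10 of the 10 genes were higher in DKO and 2 did not overlap with all 6 arrays. Without WT 2 these counts were 7 and 2, and 5 repressed genes, 1 FOXO1 target and 11 other lymphoid factors were higher. Over all tested genes so taken, 71.5% were higher in DKO with all 6 arrays and 51.7% without WT 2. Those higher without overlap were 8.61% and 11.9%. The causes were not tested.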
